A study of Mus musculus with 6 samples.

Results

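The genes described here encode the TGF-beta superfamily signalling system: its ligands (TGF-betas, BMPs, GDFs and the activin and inhibin subunits), its receptors and the Smad proteins. They were chosen by gene symbol alone, as every symbol beginning with Bmp, Gdf or Smad plus a digit, Tgfb plus a digit, or Bmpr, Tgfbr, Acvr, Inha or Inhb, with a mean of at least 10 normalised reads over the 6 libraries. This gave 47 of the 17607 genes in the table: 22 ligands, 13 receptors, 8 Smads and 4 genes that share the symbols but encode other proteins (Bmp1, Bmp2k, Tgfb1i1 and Tgfbrap1). Of 48 symbols that matched, Gdf15 was left out at a mean of 8.66, and Gdf3 at 10.1 and Bmp15 at 12.0 lay just inside the minimum.

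RNA sequencing was done on auditory nerves of CBA/CaJ mice (an inbred laboratory strain), with 3 young adult animals of 2 months and 3 old animals of 2.5 years. No other treatment or genotype is named for either group. Each library came from 1 mouse, with the nerves dissected out of both cochleas combined, so that each group holds 3 biological samples. The comparison asks which transcripts of the nerve differ between young and old age.

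A TGF-beta superfamily ligand is secreted as a dimer and brings together type I and type II serine/threonine kinase receptors. The type I receptor then phosphorylates receptor-regulated Smads, which enter the nucleus with Smad4. TGF-betas and activins signal mainly through Smad2 and Smad3, and BMPs mainly through Smad1, Smad5 and Smad9, while Smad6 and Smad7 inhibit the pathway. In peripheral nerve TGF-beta signalling is known for its part in Schwann cell development and in the response to injury, and in the inner ear BMPs pattern the developing sensory organs.

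The libraries held 34587979 to 40841478 reads assigned to genes, and the share of reads in the 10 most abundant genes was 4.69% to 5.22% in young and 5.89% to 7.39% in old libraries. Neuron and Schwann cell markers were abundant, as the label of the tissue names. The 8 neuron markers together summed to 338273 to 363227 normalised reads in young and 199620 to 299949 in old libraries (3 of 8 lower, none higher), and the 8 Schwann cell markers to 403066 to 471976 and 400189 to 452894 (1 higher, 3 lower). Marker sums of other cell types of the dissected tissue also differed with age. Beside the counts of markers that passed the test given below, 34.6% of all tested genes passed (15.9% higher and 18.7% lower). The cartilage list, at 33.3%, lies near that share. The 8 macrophage markers summed to 3992 to 5098 in young and 10192 to 15160 in old libraries (8 of 8 higher), the 9 osteoblast and osteocyte markers to 5046 to 6670 and 2503 to 4194 (6 of 9 lower), the 6 cartilage markers to 12605 to 15452 and 5011 to 6711 (2 of 6 lower), and the 6 markers of satellite and nonmyelinating glia to 78969 to 84185 and 113529 to 129876 (2 higher, 1 lower). None of these marker genes was at 0 in any library except 1 of the osteoblast list. In whole tissue, fewer cells of a type and less RNA per cell cannot be told apart, and the part of these shifts in the results below was not tested.

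In the old nerve 12 of the 46 tested members changed, 3 upward (Gdf6, Bmpr1a and Bmpr1b) and 9 downward. That is 26.1% of the members, against 34.6% of all 15882 tested genes (15.9% higher and 18.7% lower). The test was limma on log2(value + 1) with Benjamini-Hochberg adjustment over all tested genes and a threshold of 0.05. The median log2 fold change, old minus young, was -0.11 over the members and -0.00 over all tested genes. The groups did not overlap in 18 of the 46 members, against 51.8% of all tested genes. Longer transcripts were lower in old libraries across the whole table (Spearman correlation of transcript length with log2 fold change -0.38 across 14994 genes, which are not independent replicates). With smooth trends in length and GC content removed, 6 members were higher and 7 lower, while 22.9% of all genes passed (10.2% higher and 12.7% lower).

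**Figure D1:**
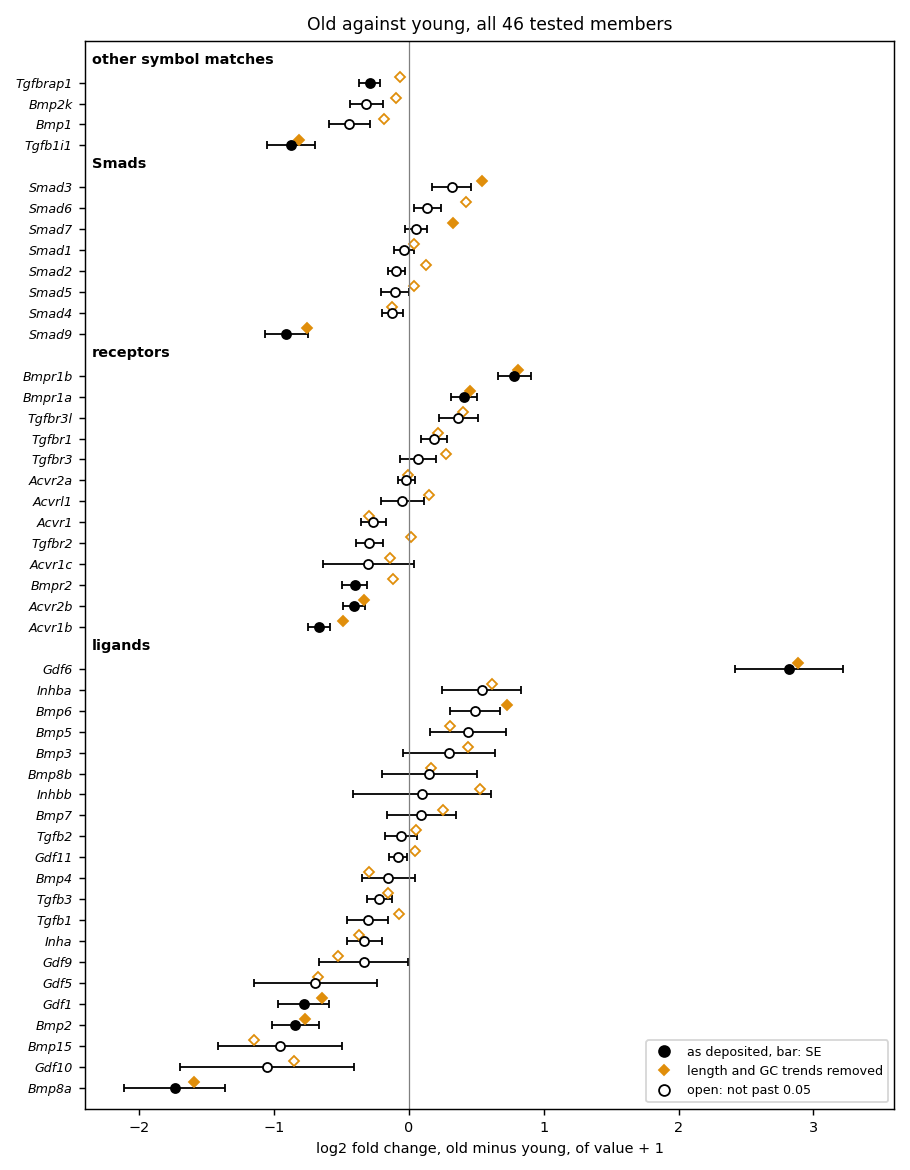
Log2 fold change (old minus young, of value + 1) of the 46 tested members, grouped as ligands, receptors, Smads and other symbol matches. Circles with SE bars are the values as deposited, diamonds the values with length and GC trends removed, and filled symbols are past an adjusted p of 0.05. Gdf6 lies farthest to the right at 2.82 and Bmp8a farthest to the left at -1.74.

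Among the ligands, Gdf6 rose, and Bmp2, Bmp8a and Gdf1 fell. These were 4 of 21 tested ligands (1 higher, 3 lower), with a median log2 fold change of -0.15. That is 19.0%, against 34.6% of all tested genes (15.9% higher and 18.7% lower). The 3 TGF-betas and the 3 activin and inhibin subunits did not pass the test. Per kilobase of transcript, which allows levels of different genes to be compared, Bmp6 (876 normalised reads per kilobase in young and 1228 in old), Tgfb2 (801 and 767) and Bmp7 (758 and 819) were the most abundant ligands. Bmp15, known as an oocyte growth factor, was the lowest in the old nerve at 2.55, and Gdf3 the lowest in the young nerve at 0.456.

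**Figure D2:**
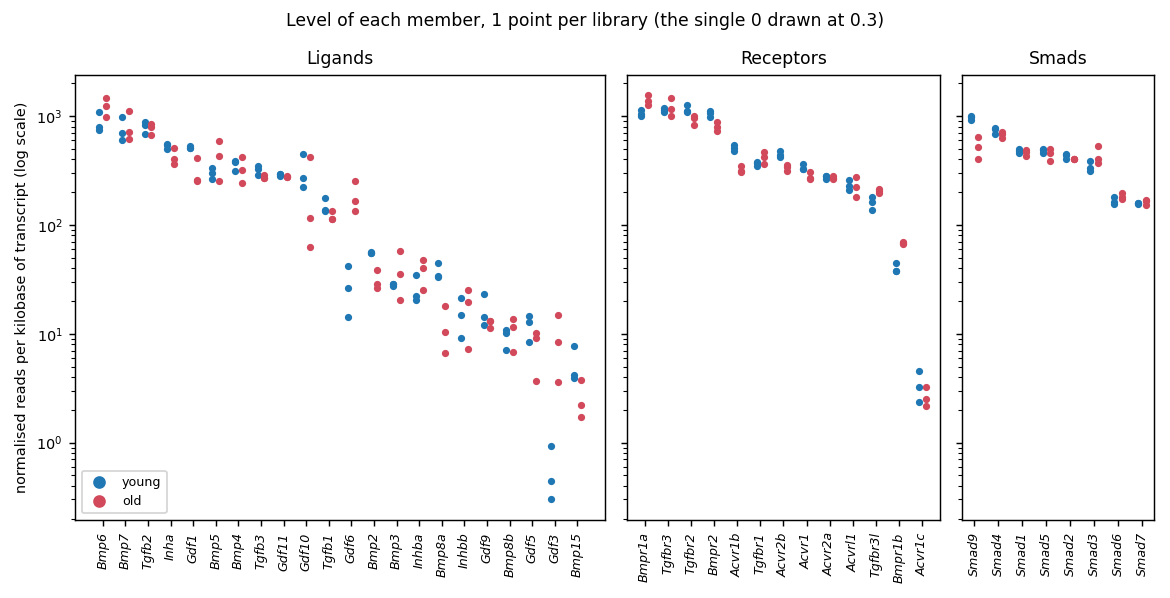
Normalised reads per kilobase of transcript (log axis) of the ligands, receptors and Smads, ordered by mean level, with 1 point per library. Ligand levels span from Bmp6 to Bmp15, Gdf6 is the ligand whose old points lie farthest above its young points among those tested, and Smad9 heads the Smads in young nerves.

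Gdf6 (chr4:9844372-9862345, plus strand, GRCm38) encodes a BMP-family ligand known for its roles in joint and eye development. Its normalised counts were 50.8, 92.4 and 148 in young 1 to 3 and 585, 479 and 897 in old 1 to 3. Each old library was above every young library. The mean went from 96.9 ± 48.6 to 654 ± 218 (SD, n = 3 each), a 6.75-fold rise (log2 fold change 2.82 ± 0.40 SE, limma adjusted p = 0.00544). The call held without any 1 library (adjusted p 0.00650 to 0.0300) and with length and GC trends removed (2.89, adjusted p = 0.00997). Gdf6 made up 0.266% to 0.707% of the summed ligand level per kilobase in young libraries and 2.12% to 5.15% in old ones, so it remained a minor part of the ligand pool. Against Bmp6, the most abundant ligand, its level per kilobase went from 3.05% ± 1.08 to 16.2% ± 8.63.

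Bmp2 (chr2:133552159-133562896, plus strand), a ligand best known for driving bone formation, read 195, 200 and 196 in young and 103, 136 and 93.8 in old libraries. The young values were close together (197 ± 2.54, SD, n = 3), and all 3 old values were lower. The log2 fold change was -0.84 ± 0.18 (adjusted p = 0.0125, and 0.0524 without young 2). Bmp8a (chr4:123312650-123343252, minus strand), a ligand described mainly in the germ line, fell from 107, 81.6 and 80.4 to 15.9, 43.6 and 25.1. The groups did not overlap, and the fall was 3.18-fold in the means (log2 fold change -1.74 ± 0.37, adjusted p = 0.0136). Bmp8a shares most of its sequence with Bmp8b, and it overlaps Oxct2a on the same strand by 1805 bases, so its count is uncertain. Bmp8b, given here only as the paralog, was at 32.0, 20.6 and 29.7 in young and 40.2, 19.9 and 33.8 in old libraries, with overlapping groups (adjusted p = 0.768). Its count is uncertain too, as Bmp8b overlaps Oxct2b on the same strand by 1753 bases. The sums of the osteoblast markers, given above, also fell, as did those for neurons, cartilage, and pericytes and smooth muscle. The part of any of these in the falls of Bmp2 and Bmp8a was not tested.

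Gdf1 (chr8:70315775-70331592, plus strand), a partner of Nodal in left-right patterning, stood at 682, 685 and 723 in young and 340, 350 and 558 in old nerves. All old values were below the young ones (log2 fold change -0.78 ± 0.19, adjusted p = 0.0203). The call was lost without young 1, young 2, young 3, old 1 or old 2 (adjusted p = 0.0509, 0.0645, 0.0677, 0.0586 and 0.0560). Gdf1 shares 15814 bases of its locus on the same strand with Cers1, which encodes a ceramide synthase made in neurons. Cers1 went from 740 ± 11.5 to 381 ± 106 (log2 fold change -0.99 ± 0.19, adjusted p = 0.00937). Reads of the 2 genes may not be separable, so the ligand's own share of this fall is uncertain. The neuron marker sum was also lower in all old libraries, as were the osteoblast and cartilage sums, and their part was not tested.

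Bmp6, a BMP also known as a regulator of iron balance, read 2850, 2658 and 3937 in young and 4460, 5244 and 3532 in old libraries. Old 3 lay within the young range. The log2 fold change was 0.49 ± 0.19 (adjusted p = 0.0803). It passed with length and GC trends removed (0.73, adjusted p = 0.0379), in the DESeq2 test (adjusted p = 0.0345), and without young 3 (0.0433) or old 3 (0.0326). It did not pass in edgeR (adjusted p = 0.0830) or with the replicate block (0.170). Without young 1, young 2, old 1 or old 2 it also missed the threshold (0.189, 0.226, 0.172 and 0.200). As a share of the summed ligand level per kilobase, Bmp6 was 14.7%, 14.7% and 18.5% in young and 23.5%, 22.8% and 19.9% in old libraries, with no overlap.

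Tgfb2, the most abundant of the TGF-betas here, was at 3519, 4512 and 4263 in young and 4296, 3441 and 4034 in old libraries. The groups overlapped almost fully (log2 fold change -0.06 ± 0.12, adjusted p = 0.720). Tgfb3 (1087 ± 106 and 932 ± 42.0, adjusted p = 0.112) and Tgfb1 (324 ± 54.7 and 260 ± 25.9, adjusted p = 0.162), the isoform most linked to fibrosis and immune control, did not pass either. For the activin and inhibin subunits the values were 783 ± 35.8 and 628 ± 109 for Inha (adjusted p = 0.0898, and 0.0131 without old 3), 165 ± 49.8 and 242 ± 73.5 for Inhba (0.188), and 64.2 ± 25.9 and 73.5 ± 39.1 for Inhbb (0.900).

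Several ligands varied widely among the 3 old animals, and old library 2 was most often the highest. It was the highest old library for 14 of 21 ligands (66.7%), for 21 of 46 members (45.7%) and for 27.1% of all tested genes. Gdf10, a BMP3-like ligand named after its values were seen, gave the widest spread, with 2335, 1402 and 1173 in young and 598, 2193 and 326 in old libraries. The range of its old values exceeded the difference between the group means (log2 fold change -1.05 ± 0.65, adjusted p = 0.239), and without old 2 it passed (-1.82, adjusted p = 0.0206). Bmp5 read 1266, 1007 and 1138 in young and 1656, 2251 and 971 in old libraries (adjusted p = 0.256, and 0.0125 without old 3). Bmp7, a ligand with roles in kidney and eye development, read 2555, 2217 and 3574 in young and 2645, 4125 and 2251 in old libraries, with overlapping groups (adjusted p = 0.801). The sum of 7 fibroblast markers had the same order, at 45804, 65487 and 33447 in old 1 to 3 against 52239 to 58399 in young libraries. The macrophage sums (13761, 15160 and 10192 in old 1 to 3) had this order too. So had those of satellite and nonmyelinating glia (123374, 129876 and 113529) and of osteoblasts and osteocytes (2906, 4194 and 2503). The part of any of these cell types in the spread of the ligands was not tested. Without old 3, 7 of 21 ligands passed (33.3%), leaving aside Gdf3, which enters that fit through its old values alone, against 38.1% of all genes in the same fit.

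**Figure D3:**
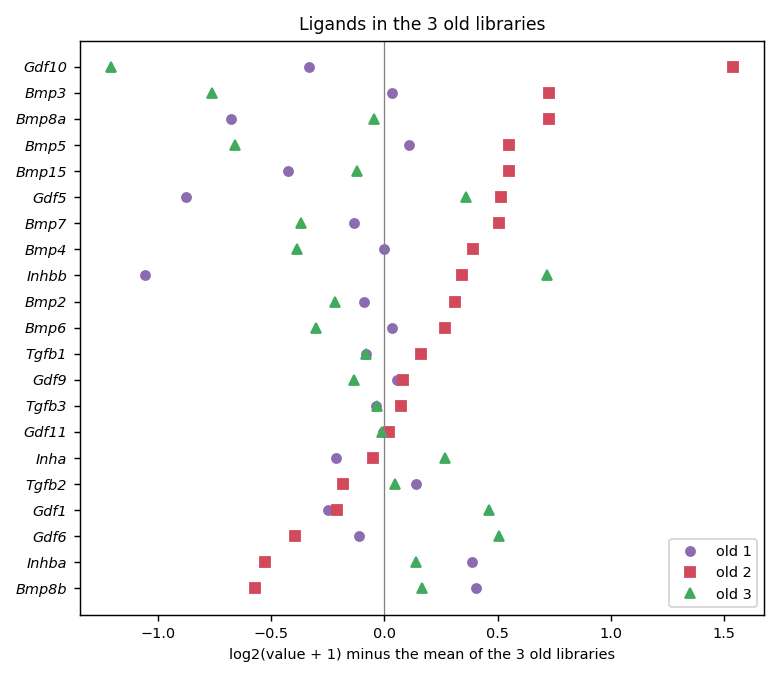
Each tested ligand in the 3 old libraries, as log2(value + 1) minus the mean of those libraries. Old 2 (squares) is farthest right for 14 of the 21 ligands, with the widest gap for Gdf10.

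The remaining ligands did not pass the test. Gdf11, a close relative of myostatin, had the lowest coefficient of variation of all ligands in old nerves, 1.23% (1185 ± 34.5 and 1120 ± 13.8, adjusted p = 0.372). Bmp4 was at 737 ± 82.2 and 676 ± 180 and Bmp3 at 186 ± 5.07 and 249 ± 123. Gdf5, Gdf9 and Bmp15 averaged under 30 normalised reads in both groups. Gdf3, a Nodal-like ligand, was below the filter on low counts in the fit of all 6 libraries and was not tested there. It stood at 0.940, 1.97 and 0 in young libraries and at 31.7, 18.03 and 7.74 in old ones. The groups did not overlap, but the young values amount to single reads, and these values were singled out after they were seen.

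Of 13 tested receptors 5 changed (38.5%, against 34.6% of all tested genes), a share near the background. Bmpr1a and Bmpr1b, both type I receptors for BMPs, rose, and Acvr1b, Acvr2b and Bmpr2 fell. By class, 2 of 7 type I receptors were higher and 1 lower, 2 of 4 type II receptors were lower, and neither of the co-receptors Tgfbr3 and Tgfbr3l passed. All 4 type II receptors had negative log2 fold changes, as had 7958 of all 15882 tested genes, and that of Acvr2a was only -0.02. With length and GC trends removed, 1 of the 4 (Acvr2b) was lower, and Tgfbr2 was at 0.02. Printed here are the sequences just upstream of a RefSeq start site of the 3 type I receptors that changed, and of Smad9. They were taken as the receptor class that binds Smads and the BMP Smad that changed. For Bmpr1b that start site lies inside the gene span given below (chr3:141837136-142169425, minus strand), not at its 5′ end. The windows of Bmpr1a, Acvr1b and Smad9 lie at the 5′ ends of their genes. The type II receptors Acvr2b and Bmpr2, which also changed, are not printed. The windows are the 250 bases before the RefSeq start site (GRCm38.p6), 5′ to 3′ on the gene's strand. Capitals mark matches on either strand to motifs known to be bound by Smad complexes. Those of the TGF-beta branch are the palindrome GTCTAGAC and the shorter box CAGAC. The GC-rich ones are the palindrome GGCGCC and the BMP element GCCGNCGC, which can overlap the palindrome or itself.
Bmpr1a, chr14:34502547-34502796, minus strand: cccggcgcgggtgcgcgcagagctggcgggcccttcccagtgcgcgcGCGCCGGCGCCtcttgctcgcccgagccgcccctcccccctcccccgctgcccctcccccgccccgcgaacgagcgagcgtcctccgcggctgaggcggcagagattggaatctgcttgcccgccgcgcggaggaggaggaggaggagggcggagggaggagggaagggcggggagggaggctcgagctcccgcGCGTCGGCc
Bmpr1b, chr3:141982265-141982514, minus strand: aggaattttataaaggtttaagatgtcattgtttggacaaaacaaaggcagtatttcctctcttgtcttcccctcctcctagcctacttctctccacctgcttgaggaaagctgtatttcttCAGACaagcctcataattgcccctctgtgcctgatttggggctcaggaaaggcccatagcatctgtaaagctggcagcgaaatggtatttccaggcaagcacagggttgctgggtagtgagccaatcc
Acvr1b, chr15:101173822-101174071, plus strand: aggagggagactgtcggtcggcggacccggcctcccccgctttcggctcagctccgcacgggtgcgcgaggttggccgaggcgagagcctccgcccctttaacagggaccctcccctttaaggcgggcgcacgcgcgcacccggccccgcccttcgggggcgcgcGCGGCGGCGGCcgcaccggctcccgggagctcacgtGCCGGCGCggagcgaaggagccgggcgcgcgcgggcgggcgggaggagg
Smad9, chr3:54755332-54755581, plus strand: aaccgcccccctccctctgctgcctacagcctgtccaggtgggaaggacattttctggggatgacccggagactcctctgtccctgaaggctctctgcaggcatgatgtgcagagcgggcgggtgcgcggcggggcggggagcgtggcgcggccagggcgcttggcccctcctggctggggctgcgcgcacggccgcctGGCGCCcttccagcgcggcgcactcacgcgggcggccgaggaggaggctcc
These windows hold 3 matches to GCCGNCGC and 1 to GGCGCC (Bmpr1a), 1 to CAGAC (Bmpr1b, the first listed start site), 3 to GCCGNCGC (Acvr1b) and 1 to GGCGCC (Smad9). GC content was 78.8% for Bmpr1a and Acvr1b, 73.2% for Smad9 and 46.8% for Bmpr1b. Of all 32851 RefSeq windows of this length, 0.167% held GTCTAGAC, 42.2% held CAGAC, 9.59% held GGCGCC and 6.89% held GCCGNCGC. Of 40 windows of 32 members, 0, 17, 8 and 9 held them. A match is a run of letters, and the data here do not bear on binding.

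Bmpr1a (chr14:34411068-34502546, minus strand) was the most abundant receptor per kilobase in the old nerve (1411, from 1061 in the young). Its counts were 5990, 6758 and 6208 in young and 9361, 8286 and 7558 in old libraries, with no overlap. It rose by a log2 fold change of 0.41 ± 0.09 (adjusted p = 0.0171), also with length and GC trends removed (0.45, adjusted p = 0.0162). Without young 1 or young 3 it missed the threshold (adjusted p = 0.0583 and 0.0638). Bmpr1b (chr3:141837136-142169425, minus strand) read 240, 201 and 202 in young and 376, 368 and 358 in old libraries. It rose 1.72-fold (log2 fold change 0.78 ± 0.12, adjusted p = 0.00627; with trends removed 0.81, adjusted p = 0.010), and the call held without any 1 library. Per kilobase Bmpr1b was at 3.30% to 4.46% of Bmpr1a in young and 4.48% to 5.27% in old libraries.

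Bmpr2 (chr1:59764279-59878081, plus strand), the type II receptor dedicated to BMPs, read 13714, 14235 and 12666 in young and 10152, 9331 and 11323 in old libraries. The groups did not overlap (log2 fold change -0.40 ± 0.09, adjusted p = 0.0165). Without young 1 or young 2 it missed the threshold (0.0527 and 0.0670). Its transcript of 12899 bases is long, and with length and GC trends removed the difference was -0.12 (adjusted p = 0.351). Within each library, the level of Bmpr1a per kilobase was 0.946, 1.03 and 1.06 times that of Bmpr2 in young nerves, and 2.00, 1.92 and 1.45 times in old ones. The type I receptor was near parity with the type II receptor in young nerves and above it in all 3 old nerves. The ratio was taken on the values as deposited, with the length and GC trends left in.

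Acvr1b (ALK4; chr15:101174125-101212601, plus strand), the main type I receptor for activins, had the smallest p of all members. Its counts fell from 2128, 2422 and 2261 to 1360, 1383 and 1543. The groups were far apart relative to their spread (2270 ± 147 and 1428 ± 100; log2 fold change -0.67 ± 0.08, adjusted p = 0.00477). The call held without any 1 library and with the trends removed (-0.49, adjusted p = 0.0136). Acvr2b (chr9:119402178-119442148, plus strand), a type II receptor for activins and several GDFs, read 1391, 1521 and 1346 in young and 999, 1083 and 1125 in old libraries. It fell by 0.41 on the log2 scale (SE 0.08, adjusted p = 0.0114; with trends removed -0.33, adjusted p = 0.0309; without young 2 0.0506). Its close relative Acvr2a did not pass, at 1586, 1609 and 1510 in young and 1540, 1513 and 1590 in old libraries (log2 fold change -0.02 ± 0.06, adjusted p = 0.842).

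The TGF-beta receptors themselves did not pass. Tgfbr2, the type II receptor for TGF-betas, read 8949, 10218 and 8760 in young and 7859, 8196 and 6734 in old libraries, with no overlap (log2 fold change -0.30 ± 0.10, adjusted p = 0.0564). The authors' deposited table gave it an FDR of 0.0310, and the DESeq2 test an adjusted p of 0.0313, while with length and GC trends removed the difference was 0.02. Tgfbr1, its type I partner, read 2151, 1990 and 2181 in young and 2446, 2668 and 2102 in old libraries (adjusted p = 0.180, and 0.0299 without old 3). Tgfbr3 (betaglycan), a co-receptor that presents TGF-beta2, read 6680, 6944 and 7191 against 7047, 8944 and 6074, with overlap (adjusted p = 0.729). Among the others, Acvr1 (1115 ± 73.7 and 928 ± 78.1, adjusted p = 0.0609, and 0.0252 without old 3) and Tgfbr3l (172 ± 23.5 and 221 ± 8.34, adjusted p = 0.0915) had groups that did not overlap. Acvrl1 (ALK1), a receptor of endothelial cells, was at 840 ± 89.5 and 821 ± 169, and Acvr1c (ALK7) averaged 30.9 ± 9.92 and 24.4 ± 5.12.

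Of the 8 Smads, 1 changed (12.5%, against 34.6% of all tested genes). Smad9 (also called Smad8; chr3:54755582-54801269, plus strand), a BMP-regulated Smad, read 4944, 5335 and 5278 in young and 2150, 2812 and 3478 in old libraries. Every old library was below every young one. The log2 fold change was -0.91 ± 0.16 (adjusted p = 0.00805; with trends removed -0.76, adjusted p = 0.0186), and the call held without any 1 library, but not without both young 1 and old 2 (adjusted p = 0.0509). Smad9 was the most abundant Smad per kilobase in the young nerve at 966, and at 524 in the old nerve it was below Smad4 at 677. Neuron markers moved in the same order as Smad9 among the old libraries, at 199620, 251176 and 299949 in old 1 to 3. So did Schwann cell markers, at 400189, 440011 and 452894. The part of either cell type in the fall of Smad9 was not tested.

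The other BMP Smads did not pass. Smad1 was at 1797 ± 72.4 and 1750 ± 112 (adjusted p = 0.708), and Smad5 read 3018, 3194 and 3265 in young and 3310, 3037 and 2527 in old libraries (adjusted p = 0.470). Per kilobase, Smad9 made up 49.7%, 50.3% and 50.7% of the summed Smad1, Smad5 and Smad9 level in young nerves and 30.0%, 36.0% and 42.6% in old ones. The makeup of the BMP-regulated Smads differed without overlap (50.3% ± 0.517 in young and 36.2% ± 6.29 in old libraries, SD, n = 3). Smad2 (3580, 3602 and 3290 in young and 3297, 3262 and 3255 in old libraries) and the shared partner Smad4 (2306, 2616 and 2569 in young and 2318, 2146 and 2407 in old libraries) did not pass (adjusted p = 0.281 and 0.252).

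Smad3, which carries TGF-beta and activin signals with Smad2, read 1689, 1607 and 1979 in young and 2053, 2691 and 1883 in old libraries. Old 3 lay within the young range (log2 fold change 0.32 ± 0.15, adjusted p = 0.129). With length and GC trends removed it passed (0.55, adjusted p = 0.0368), as did the inhibitory Smad7 (0.32, adjusted p = 0.0431). As deposited, Smad7 was at 672 ± 7.94 and 696 ± 36.0 (log2 fold change 0.05 ± 0.08, adjusted p = 0.662). Smad6, the inhibitor that acts mainly on BMP signals, was at 495 ± 37.8 and 544 ± 36.3 (adjusted p = 0.328, and 0.0531 with trends removed).

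**Figure D4:**
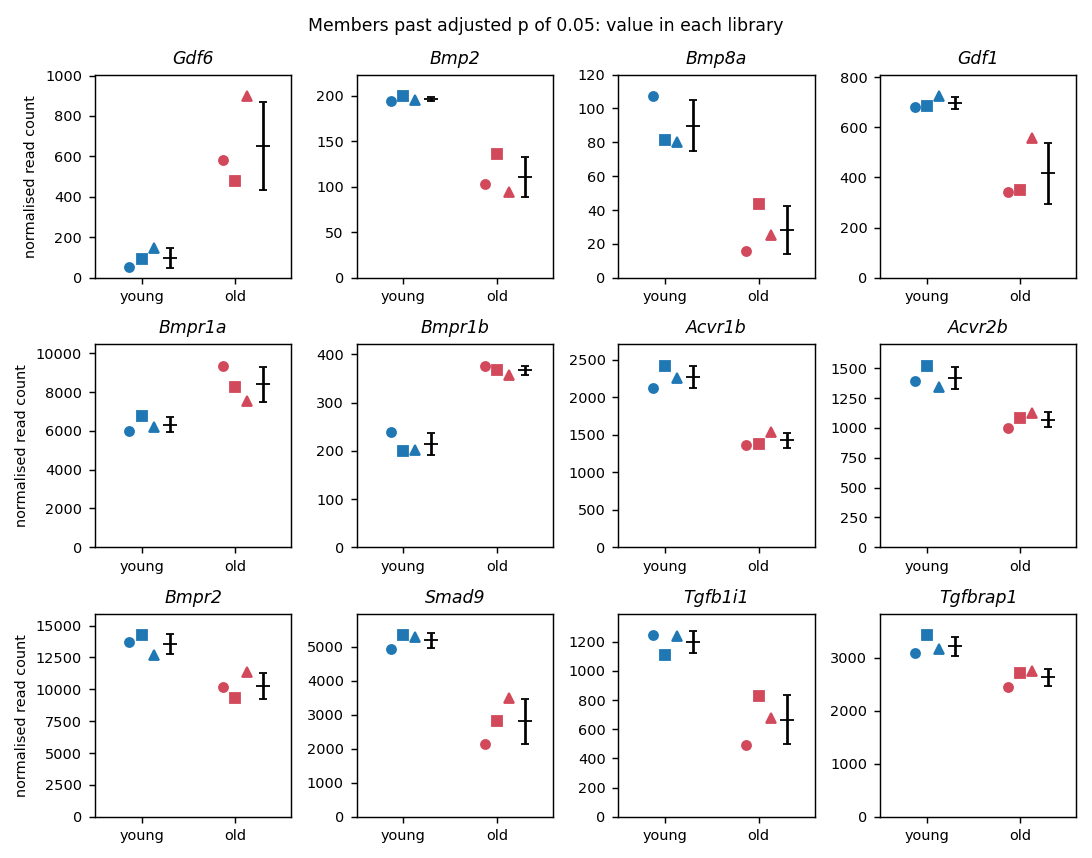
Normalised read counts of the 12 members that passed, in each of the 3 young and 3 old libraries (circle, square and triangle are replicates 1, 2 and 3), with the mean and SD in black and each axis starting at 0. In all 12 the young and old points do not overlap, as in 51.8% of all tested genes. The 12 were selected by p on these same values, so this separation adds no support. Gdf6, Bmpr1a and Bmpr1b are the genes that are higher in old nerves.

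The 4 other symbol matches all had lower means in old nerves, with overlapping groups for Bmp2k. Of the 4, 2 passed (50%, against 34.6% of all tested genes), and 1 passed with length and GC trends removed. Tgfb1i1 (Hic-5), a focal adhesion adaptor, fell from 1244, 1111 and 1238 to 493, 826 and 678 (log2 fold change -0.88 ± 0.18, adjusted p = 0.0119), in every fit without 1 library and with the trends removed (-0.82, adjusted p = 0.0187). Such adhesion proteins are abundant in pericytes and smooth muscle cells. The markers of these cells summed to 14769 to 17977 in young and 12130 to 13295 in old libraries (2 of 7 lower, against 18.7% of all tested genes). Their part in the result was not tested. Tgfbrap1, which binds TGF-beta receptors and belongs to an endosomal tethering complex, fell from 3079, 3420 and 3156 to 2440, 2708 and 2740 (log2 fold change -0.29 ± 0.08, adjusted p = 0.0236). It missed the threshold without young 2, young 3 or old 1 (0.0913, 0.0702 and 0.0570), and with the trends removed it was at -0.06 (adjusted p = 0.536). Bmp1, a procollagen-cleaving protease and no ligand, read 1854, 1725 and 1647 against 1078, 1637 and 1191 (adjusted p = 0.0596, and 0.0141 without old 2). The kinase Bmp2k read 890, 1080 and 936 against 739, 893 and 706 (adjusted p = 0.0801, and 0.0410 without old 2).

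Beyond the members, 126 tested genes of the pathway were read from lists of antagonists, activators, co-receptors, regulators and targets. Of these 10 rose and 26 fell (28.6%, against 34.6% of all tested genes), with a median log2 fold change of -0.11. With upper-quartile scaling the split was 15 higher and 20 lower, and with length and GC trends removed 13 higher and 17 lower.

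**Figure D5:**
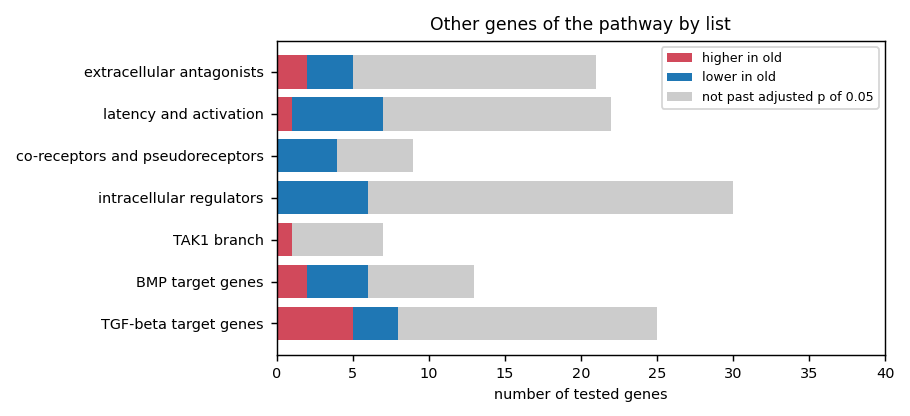
Number of tested genes in each pathway list that were higher in old nerves, lower, or not past an adjusted p of 0.05 (a gene can stand in more than 1 list). With the values as deposited, the co-receptor and intracellular regulator lists hold only falls among the genes that passed, 4 of 9 and 6 of 30.

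Secreted antagonists changed in both directions. Of 21 tested, 2 rose and 3 fell (23.8%, against 34.6% of all tested genes). Fstl3, a follistatin-like protein that binds activins, rose from 195, 252 and 207 to 478, 340 and 631, with no overlap (log2 fold change 1.11 ± 0.23, adjusted p = 0.0123). Chrdl1, a chordin-like BMP antagonist, rose from 1312 ± 129 to 2049 ± 303 (0.64 ± 0.12, adjusted p = 0.00982). Nog (noggin), which sequesters BMPs, went from 96.2 ± 10.3 to 59.9 ± 11.9 (-0.69 ± 0.22, adjusted p = 0.0457, and 0.0716 to 0.148 without young 1, young 2, young 3, old 1 or old 3). Sost, an antagonist made by osteocytes that is itself among the bone markers, fell from 573 ± 163 to 265 ± 95.2 (-1.13 ± 0.28, adjusted p = 0.0214, and up to 0.0630 without young 1, young 3 or old 1).

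Genes for latency and activation of the ligands were lower where they passed, with 1 exception. The share that passed was 31.8%, against 34.6% of all tested genes. Of 22 tested, 6 fell, and Ltbp2 rose, a protein of elastic fibres named here because it was the exception (1294 ± 378 to 2128 ± 431, adjusted p = 0.0498, and lost without any 1 of the 6 libraries, with an adjusted p of up to 0.143). Fbn1 (fibrillin-1), the microfibril protein that stores latent TGF-beta and BMPs, fell from 2310, 2154 and 2135 to 1092, 1476 and 1189 (log2 fold change -0.82 ± 0.12, adjusted p = 0.00544). Furin, the protease that cleaves ligand precursors, fell from 3121 ± 232 to 2220 ± 135 (-0.49 ± 0.08, adjusted p = 0.00707), and Ltbp4, which binds latent TGF-beta, from 3569 ± 64.7 to 2279 ± 462 (-0.67 ± 0.13, adjusted p = 0.0109). With length and GC trends removed these 3 did not pass (-0.34, -0.16 and -0.09, adjusted p = 0.0617, 0.288 and 0.695), and the list held 3 rises and 1 fall. Pcolce2, an enhancer of procollagen cleavage, fell from 648 ± 71.1 to 403 ± 78.0 (adjusted p = 0.0154, and 0.0624 without young 2).

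Among co-receptors 4 of 9 fell (44.4%, against 18.7% of all tested genes) and none rose. Rgmb (Dragon), a BMP co-receptor of neurons, fell from 2453 ± 60.8 to 1549 ± 161, with no overlap (log2 fold change -0.67 ± 0.09, adjusted p = 0.00499; with trends removed -0.50, adjusted p = 0.0132). Its relative Rgma fell from 7208 ± 1115 to 4318 ± 846 (-0.74 ± 0.16, adjusted p = 0.0146, and up to 0.0588 without young 2 or young 3). Neo1 (neogenin), the receptor for both proteins, went from 6755 ± 199 to 5754 ± 303 (-0.23 ± 0.07, adjusted p = 0.0325, and up to 0.111 without young 1, young 2, young 3 or old 1). Eng (endoglin), the endothelial TGF-beta co-receptor, fell from 3228 ± 665 to 2109 ± 13.5 (-0.59 ± 0.13, adjusted p = 0.0154). With the trends removed, Rgmb was the 1 gene of the list that passed. Endothelial markers summed to 14656 to 15244 in young and 13632 to 14669 in old libraries (2 of 8 lower, against 18.7% of all tested genes). Their part in the fall of Eng was not tested.

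Of 30 intracellular regulators 6 fell and none rose (20%, against 18.7% of all tested genes lower and 15.9% higher). With length and GC trends removed, 1 was higher and 6 were lower. Rnf111 (Arkadia), a ubiquitin ligase that removes inhibitors of Smad signalling, fell from 1850, 1918 and 1785 to 1334, 1173 and 1268, with no overlap (log2 fold change -0.56 ± 0.07, adjusted p = 0.00516; with trends removed -0.46, adjusted p = 0.0137). Hgs, an endosomal sorting protein that helps to recruit Smads to receptors, fell from 3532 ± 99.8 to 2354 ± 398 (-0.60 ± 0.12, adjusted p = 0.0115). Lemd3 (MAN1), an inner nuclear membrane protein that binds and restrains Smads, fell from 1594 ± 58.8 to 1268 ± 101 (adjusted p = 0.0204, and up to 0.0806 without young 2, young 3 or old 2). Rnf165 (Arkadia2), known in BMP signalling of motor neurons, fell from 153 ± 32.0 to 60.1 ± 37.5 (adjusted p = 0.0361, and up to 0.104 without any 1 library but old 3). In the TAK1 branch, the Smad-independent arm, 1 of 7 genes passed (14.3%, against 34.6% of all tested genes). The ubiquitin ligase Traf6 rose from 1718 ± 129 to 2071 ± 106 (adjusted p = 0.0372, and up to 0.118 without any 1 library but old 3).

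Target genes of both branches moved in both directions. Of 13 BMP targets 2 rose and 4 fell (46.2%, against 34.6% of all tested genes). The rises were Id4, from 1105, 1203 and 1134 to 1798, 1550 and 1728 (log2 fold change 0.56 ± 0.08, adjusted p = 0.00566), and Id1, from 1392, 1137 and 1006 to 1764, 2108 and 1859 (0.71 ± 0.13, adjusted p = 0.00886). Id proteins are inhibitors of basic helix-loop-helix transcription factors, and Id1 is a standard readout of BMP signalling. Id2 (2685 ± 131 and 3365 ± 507) and Id3 (4354 ± 59.4 and 4492 ± 376), given after their values were seen to complete the family, did not pass (adjusted p = 0.0686 and 0.697). With length and GC trends removed Id4 passed (0.46, adjusted p = 0.0177) and Id1 did not (0.40, adjusted p = 0.0633). Zfp423, a Smad cofactor, fell from 1144 ± 24.3 to 671 ± 94.3 (-0.78 ± 0.11, adjusted p = 0.00580). The bone transcription factor Sp7 (osterix) fell from 501 ± 85.8 to 239 ± 76.1 (-1.10 ± 0.23, adjusted p = 0.0128), and the remaining falls were Dlx5 and Dlx3, homeobox genes of bone and tooth, named after their values were seen (adjusted p = 0.0254 and 0.0351). Dlx5 missed the threshold without any 1 young library (up to 0.0883), and Dlx3 without any 1 library but old 3 (up to 0.124). Sp7 is also among the osteoblast markers, whose fall is given above, and their part in these falls was not tested.

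Of 25 TGF-beta targets 5 rose and 3 fell (32%, against 34.6% of all tested genes). Postn (periostin), a matrix protein induced by TGF-beta, rose from 620, 934 and 875 to 4012, 2531 and 4466 (log2 fold change 2.16 ± 0.24, adjusted p = 0.00445). Its old values were far above all young values, and it passed with the trends removed (2.02). Lox (lysyl oxidase), which crosslinks collagen, rose from 2349 ± 429 to 3869 ± 677 (0.72 ± 0.17, adjusted p = 0.0182, and 0.0515 without old 1). The 3 falls were all fibrillar collagen genes. Col1a2 fell from 17442 ± 1536 to 5758 ± 1991 (-1.65 ± 0.22, adjusted p = 0.00506), and Col1a1 and Col3a1 are named because they complete the falls (adjusted p = 0.0208 and 0.0403). Col1a1 missed the threshold without young 1, young 3 or old 1 (up to 0.0670), and Col3a1 without any 1 library but old 2 (up to 0.113). Ctgf and Ltbp2, named after their values were seen, also rose (adjusted p = 0.0282 and 0.0498), but missed the threshold without any 1 library but old 3 (Ctgf, up to 0.0873) and without any 1 library (Ltbp2, up to 0.143). Col1a2 and Col3a1 are also fibroblast markers, and were the 2 of those 7 markers that were lower. None of the 7 was higher, but 5 had positive log2 fold changes, with a median of 0.27 over the list. Col1a1 and Col1a2 are major products of bone cells, whose markers fell. The part of either cell type in the collagen falls was not tested.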

How the data were processed

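Per the submitters' processing notes, reads were processed with TopHat2, Partek and DESeq2 on mm10. Of versions, annotation, filters and strand nothing is stated (not given in the sources used here). As deposited by the authors, 1 table has 6 sample columns that are a signal: reads divided by 1 size factor per library. Whole reads were recovered from it (99.9% or more of values within 0.1 of a whole number; 1 read was worth 0.940 to 1.10). The authors also deposited a p-value, an FDR and a fold change (a signed score) per gene, used only where named. The main test was limma 3.58.1 (trended empirical Bayes, R 4.3.3), two-sided, on log2(value + 1) of all 6 libraries. Genes were kept by edgeR's filter (minimum count 10, minimum total 15), and p-values were adjusted over all 15882 genes kept. A fold change on the log2(value + 1) scale understates the change of low genes. Gene folds printed without log2 are ratios of group means.

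Members and lists were chosen with earlier results of these data known. All members may be named. Values per library are given for members that passed and for up to 4 per role that missed the threshold, by mean; Gdf10, Gdf3 and Bmp8b are exceptions to this. From each pathway list up to 4 genes with the smallest p are named, with exceptions said where they stand. The values of 1 list gene are not reported here. The longest protein-coding transcript of a gene in GENCODE M21 (GRCm38) set its length and GC, whose trends were removed per library with mgcv 1.9.3. Coordinates are GRCm38, and promoter windows are from RefSeq (GRCm38.p6). The alternatives were edgeR 4.0.16 and DESeq2 1.42.0 on the recovered reads, upper-quartile and TMM scaling, pseudocounts, filters, thresholds, a replicate block and fits without libraries. On simulated counts (15762 genes), limma called 37.3% of the genes given a 1.5-fold change, 70.1% of those given 2-fold and 97.0% of those given 4-fold. Of 143 calls 7 were false. Far fewer genes were changed in the simulation than the 5493 called in the data, which makes its adjustment stricter. These shares therefore do not measure how many real changes the test found here.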

Additional observations from a re-analysis of the deposited data

How the results depend on the processing

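The 12 members passed as the same genes in edgeR, with TMM scaling and with both other pseudocounts; no member's call reversed in any alternative run. Over all genes the calls numbered 1866 at an adjusted p of 0.01, 3427 with length and GC trends removed, 1776 without both young 1 and old 2, and 2589 to 6117 without 1 library; upper-quartile scaling gave 3439 higher and 2338 lower, against 2524 and 2969. At an adjusted p of 0.01 the counts were 4 members, 1 ligand, 2 receptors, 0 other symbol matches and 11 pathway genes; at 0.1 they were 19 members, 8 receptors and 4 other symbol matches. With length and GC trends removed 3 Smads and 1 other symbol match passed. Without both young 1 and old 2 there were 2 receptors, 0 Smads and 23 pathway genes. Without 1 library the ranges were 8 to 18 members, 3 to 8 ligands and 3 to 7 receptors. For other symbol matches the range was 1 to 4 and for pathway genes 19 to 42, and 1 Smad passed in each fit. Gdf3, which enters through its old values alone, is counted in 4 of these fits (without young 1, young 2, young 3 or old 3). The 8 and the 18 members, the 8 ligands and the 3 ligands without young 2 include it. Replicate numbers did not pair the samples (correlations of same-numbered deviations -0.291, -0.412 and -0.0499); with the replicate block 2711 genes, 3 receptors, 1 other symbol match and 19 pathway genes passed. Among the fits without 1 library, Inha, Bmp5, Gdf10, Tgfbr1, Acvr1, Bmp1 and Bmp2k passed only in the 1 given with each. Low young counts limit Gdf3, and 3 libraries per group limit the smaller changes.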
